A study of Mus musculus with 6 samples.

Results

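Plekhb2 and 3 genes that lie within 1 Mb of it on mouse chromosome 1, Fam168b, Ptpn18 and Imp4, were followed in ribosome-bound RNA of hepatocytes repopulating the liver. The 4 genes were taken by symbol from the deposited table and held 27 of its transcripts, out of 35970 gene symbols in all. Plekhb2 was picked because its level differed between the groups in these libraries, so its own difference is given here as a description with no test. The 3 neighbours were picked by position.

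Every mouse was Fah-/-;dCas9+, that is, without the tyrosine-breakdown enzyme Fah and with dCas9, a Cas9 that cannot cut DNA and that blocks transcription where a guide places it (CRISPR interference, CRISPRi). All were kept on nitisinone at 7.5 µg/mL, a drug that protects Fah-deficient liver, until they were injected through the tail vein with 10 µg of a transposon plasmid and a Cre virus, AAV8.TBG.PI.Cre.rBG, whose TBG promoter is active in hepatocytes. The plasmid carried Fah, the ribosomal tag GFP-L10a and a guide RNA, either non-targeting (3 mice) or against Neurl1b (3 mice), a ubiquitin ligase gene of the Notch ligand pathway. Nitisinone was then withdrawn, and livers were taken 4 weeks later. Only hepatocytes that kept the plasmid carry Fah, the guide and the tag, so ribosomes pulled down from 400 mg of liver with an antibody to GFP should come mainly from them. The labels do not name the guide sequences or the number of guides for Neurl1b, and 1 targeting construct was used, so effects of the construct other than on Neurl1b cannot be told apart from effects of Neurl1b.

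Plekhb2 encodes evectin-2, a membrane protein with a pleckstrin homology domain that binds phosphatidylserine on the cytosolic face of recycling endosomes. It is known for a role in carrying cargo from recycling endosomes back to the Golgi, and it has been linked to ubiquitin ligases of the NEDD4 family. Fam168b encodes a small membrane-associated protein described in neurons as an inhibitor of neurite outgrowth. Ptpn18 is a tyrosine phosphatase of the PEST group that acts on ERBB2, and Imp4 is a subunit of the U3 snoRNP within the small subunit processome, the particle that matures the RNA of the small ribosomal subunit.

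Neurl1b, the targeted gene, was at 1.22, 0.897 and 0.688 TPM (transcripts per 1000000, a share of a library corrected for transcript length) in non-targeting mice 1, 2 and 3, and at 0.295, 0.351 and 0.307 in CRISPRi mice 1, 2 and 3. All CRISPRi mice lay below all controls, 2.95-fold lower on the means (exact two-sided permutation p = 0.1, the smallest that 3 against 3 allows). The same was seen in 4.57% of all tested genes. Neurl1b itself fell below the mean of 1 TPM required for the main limma test. With no filter, its adjusted p in limma was 0.430. The 7 hepatocyte markers summed to between 21842 and 54989 TPM in each library. Markers of other cell types, summed per type, held at most 89.1 TPM, except red cell genes at 262 to 1985 TPM. Fah, which the plasmid restores, was at 63.9 ± 9.74 TPM in the controls and 62.5 ± 14.9 TPM after CRISPRi (SD, n = 3 each). Among the controls, non-targeting mouse 2 had the highest sums of hepatocyte markers and red cell genes, 54989 and 1985 TPM. Mice 1 and 3 held 31192 and 24698 TPM of the former, and 511 and 582 TPM of the latter. Leaving out non-targeting mouse 1 changed the number of calls more than leaving out any other mouse. With non-targeting mouse 1 kept, 2 of 10598 genes passed limma's adjusted p of 0.05. Without it, 23.1% of genes were called higher and 2.24% lower, and 1.74% and 2.74% when the libraries were also scaled by the median of ratios. Counts and calls that change without that mouse are therefore also given without it.

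Plekhb2 was barely present in the controls and moderately expressed after Neurl1b CRISPRi. Its level was 0.639, 0.332 and 0.526 TPM in non-targeting mice 1, 2 and 3. In CRISPRi mice 1, 2 and 3 it was 7.31, 13.3 and 7.33 TPM. The groups do not overlap, CRISPRi mouse 2 is the highest, and the lowest CRISPRi mouse is more than an order of magnitude above the highest control. The same absence of overlap, with CRISPRi higher, was seen in 12.5% of all tested genes. Mean levels were 0.499 ± 0.155 and 9.30 ± 3.43 TPM (SD, n = 3 each), which is a ratio of 18.6. On the log2(TPM + 1) scale the difference of the means was 2.74. That scale understates the ratio of a gene as low as Plekhb2 in the controls. The difference was 2.80 when non-targeting mouse 1 was left out and 2.61 under median-of-ratios scaling. A higher level in each hepatocyte and a larger share of hepatocytes with the transcript cannot be told apart in these bulk libraries.

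**Figure D1:**
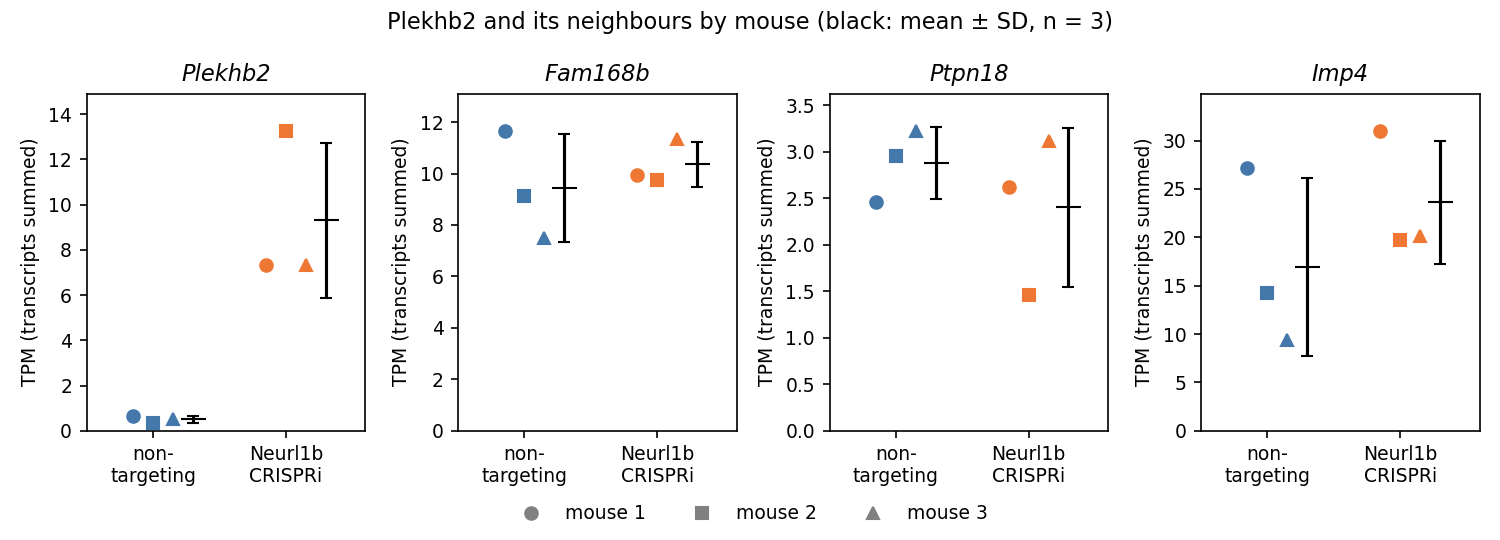
TPM of Plekhb2, Fam168b, Ptpn18 and Imp4, each panel with its own axis from 0, in 3 non-targeting mice (blue) and 3 Neurl1b CRISPRi mice (orange), with circles, squares and triangles for mice 1, 2 and 3 of each group and black marks for mean ± SD. Plekhb2 lies at 0.332 to 0.639 TPM in the controls and 7.31 to 13.3 in the CRISPRi mice, while the groups overlap for the other 3 genes.

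The rank of Plekhb2 within each library moved from the lower to the upper part of the expressed genes. Among genes above 0 TPM, 37.1%, 31.9% and 37.9% lay below Plekhb2 in non-targeting mice 1, 2 and 3. In CRISPRi mice 1, 2 and 3 the share was 65.9%, 74.5% and 66.4%. A within-library rank does not depend on how libraries are scaled. For Fam168b, which lies upstream of Plekhb2 and is read from the opposite strand, the share stayed between 70.0% and 72.2% in all 6 libraries. The ratio of Plekhb2 to Fam168b, both in TPM and so per length, was 0.0548, 0.0364 and 0.0702 in non-targeting mice 1, 2 and 3. It was 0.736, 1.36 and 0.645 in CRISPRi mice 1, 2 and 3, so that Plekhb2 came near the level of its neighbour and in CRISPRi mouse 2 exceeded it.

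Plekhb1 encodes evectin-1, the closest relative of evectin-2. It was at 26.1, 12.9 and 22.5 TPM in non-targeting mice 1, 2 and 3, and at 28.8, 31.4 and 17.7 TPM in CRISPRi mice 1, 2 and 3. The groups overlap, and limma's log2 fold change was 0.34 (SE 0.30, adjusted p = 0.566). Plekhb1 exceeded Plekhb2 in every library. The ratio of Plekhb2 to Plekhb1 was 0.0234 to 0.0257 in the controls and 0.254 to 0.423 in the CRISPRi mice. No transcript of another gene shared 90% identity over 200 nt or more with a Plekhb2 transcript in a blastn search, the longest match being 135 nt to Ocrl. Whether shorter matches share reads was not tested.

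Summed markers of stellate cells and fibroblasts (6 of 6 in the table, none at 0 in every library) were also higher after CRISPRi. They held 15.5, 10.5 and 23.8 TPM in non-targeting mice 1, 2 and 3 and 38.0, 38.4 and 26.1 TPM in CRISPRi mice 1, 2 and 3, 2.06-fold higher without overlap (exact two-sided permutation p = 0.1). Among all tested genes, 12.5% lay higher without overlap. Of the 6 markers, 4 were tested one by one and none passed limma. The other lists overlapped between groups: Kupffer cells and macrophages held 38.7 to 67.0 TPM in controls and 55.7 to 89.1 after CRISPRi, sinusoidal endothelium 14.6 to 20.7 and 15.0 to 21.1, and cholangiocytes 13.3 to 25.7 and 15.9 to 23.8. Lymphocyte and neutrophil markers held 7.41 to 48.3 TPM in controls and 2.49 to 14.5 after CRISPRi. The part of these cells in the Plekhb2 result was not tested.

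Plekhb2 has 4 annotated transcripts, of which 3 were above 0 in any library, and the full-length coding form carried most of the difference. Plekhb2-201 (ENSMUST00000027297), with 8 exons and 663 coding bases, was at 0.633, 0.332 and 0.522 TPM in non-targeting mice 1, 2 and 3. It was at 6.60, 11.3 and 6.72 TPM in CRISPRi mice 1, 2 and 3, a ratio of means of 16.6. Plekhb2-202 (ENSMUST00000152654), a fragment of 344 nt in 4 exons with its own first exon downstream of the main start and an incomplete 3′ end, was listed at 0 in every control. In CRISPRi mice 1, 2 and 3 it was at 0.653, 1.86 and 0.580 TPM, or 8.93%, 14.0% and 7.91% of the gene. Plekhb2-203 (ENSMUST00000156687), with 7 exons and 612 coding bases, was at 0.00562, 0 and 0.00436 TPM in the controls and at 0.0596, 0.0752 and 0.0277 TPM in the CRISPRi mice. The processed transcript Plekhb2-204 was listed at 0 in all 6 libraries.

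The make-up of Plekhb2 RNA thus differed slightly between groups. Plekhb2-201 made up 99.4% of the gene's TPM in the controls on average and 89.1% in the CRISPRi mice, a difference of -10.3 percentage points. Nearly all of it was Plekhb2-202. Had Plekhb2-202 taken its CRISPRi share of 10.3% in the controls too, its level there would have been 0.0513 TPM. TPM keep no depth, so it cannot be said whether so low a level would have been seen. How kallisto divided reads between these forms was not tested.

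**Figure D2:**
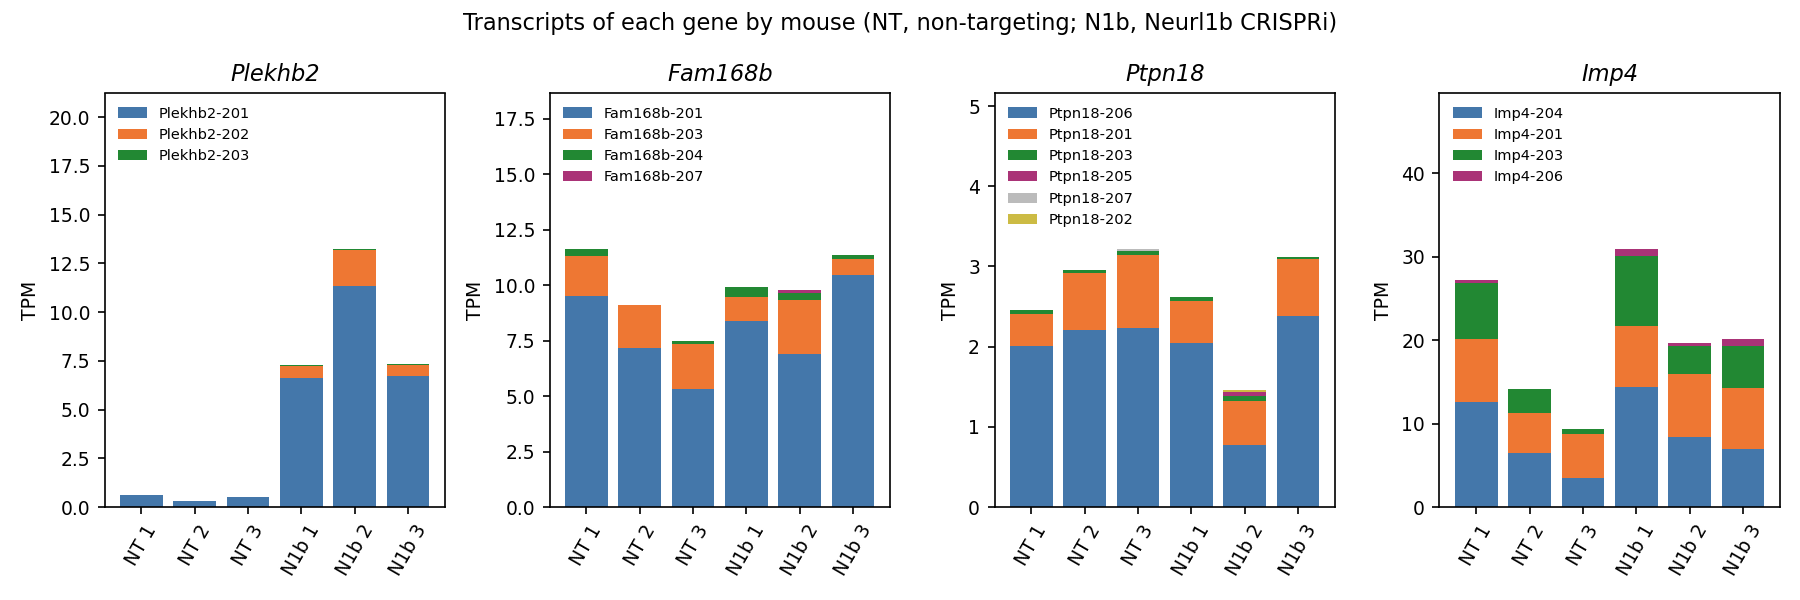
Stacked TPM of the annotated transcripts above 0 for each of the 4 genes, one bar per mouse (NT 1 to 3, non-targeting; N1b 1 to 3, Neurl1b CRISPRi), each panel with its own axis from 0. Plekhb2-201 makes up most of each Plekhb2 bar, Plekhb2-202 appears in CRISPRi mice alone, and Imp4-203 and Imp4-204 vary more between control mice than Imp4-201.

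The coding sequences of the full-length forms are shown because they part at a defined base and only the first was abundant. Plekhb2-201 and Plekhb2-203 share their first 530 coding bases and then end in 133 and 82 bases of their own. Bases 501 to 560 of each coding sequence are given from the GENCODE vM21 transcripts (GRCm38), 5′ to 3′, in capitals from the base where the forms part.
Plekhb2-201: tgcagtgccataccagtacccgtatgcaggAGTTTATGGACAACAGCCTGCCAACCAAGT
Plekhb2-203: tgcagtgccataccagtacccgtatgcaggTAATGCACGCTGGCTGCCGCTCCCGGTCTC

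The 250 bases before the Plekhb2 start are shown because Fam168b, the nearest tested gene, lies upstream on the opposite strand, yet its groups overlap. The distance between the starts of these genes was not measured, and a shared promoter was not tested. They are from RefSeq, chr1:34849709-34849958 of GRCm38.p6, plus strand, one of the pair of Plekhb2 starts in the RefSeq promoter table, which held 3 of the 4 genes. This build is not that of the deposited table, mm39. Capitals mark, from 5′ to 3′, a TEAD core (CATTCC) 167 bases before the start and an NRF1 half-site (TGCGCA) 16 bases before it.
Plekhb2 promoter: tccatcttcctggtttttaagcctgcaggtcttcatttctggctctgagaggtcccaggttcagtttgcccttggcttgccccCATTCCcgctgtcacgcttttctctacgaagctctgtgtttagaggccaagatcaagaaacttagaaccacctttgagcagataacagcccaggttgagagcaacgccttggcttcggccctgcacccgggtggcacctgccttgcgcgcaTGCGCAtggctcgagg

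Both strands were searched for 4 motifs, which do not overlap each other in this window, and for each the share of 32851 promoter windows of the same length that hold it was counted. The NRF1 half-site, whose letters were chosen after this window had been searched, occurred in 6.43% of windows, and the TEAD core, bound by the partner of YAP, in 12.6%. The core of RBPJ, the DNA-binding factor of Notch signalling (TGGGAA, in 21.6% of windows), and that of NRF2 (TGACNNNGC, in 10.2%) had no match in these letters. The window was 55.6% G or C and held 10 CpG, against a median of 6 per window. A match is a description of the letters and not of binding, which was not measured.

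Fam168b, the nearest tested neighbour, was at about the same level in both groups. It was at 11.7, 9.12 and 7.49 TPM in non-targeting mice 1, 2 and 3 and at 9.94, 9.77 and 11.4 TPM in CRISPRi mice 1, 2 and 3. All 3 CRISPRi mice lie within the range of the controls. Means were 9.42 ± 2.10 and 10.4 ± 0.874 TPM (SD, n = 3 each). limma gave a log2 fold change of 0.14 (SE 0.20, 95% interval -0.31 to 0.59, adjusted p = 0.713). The sign turned to -0.05 with median-of-ratios scaling. The upper bound of the interval lies far below the 2.74 of Plekhb2, a gene picked for its difference. The main form, Fam168b-201, was at 9.53, 7.17 and 5.31 TPM in the controls and 8.37, 6.92 and 10.5 TPM in the CRISPRi mice, and Fam168b-203 at 1.79, 1.95 and 2.05 against 1.10, 2.42 and 0.741 TPM. Neither form separated the groups.

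Ptpn18 was low in all mice and did not separate the groups. It was at 2.46, 2.95 and 3.22 TPM in non-targeting mice 1, 2 and 3 and at 2.62, 1.46 and 3.12 TPM in CRISPRi mice 1, 2 and 3. CRISPRi mouse 2 was the lowest of the 6, while the other CRISPRi mice lay within the control range. The log2 fold change was -0.22 in limma (SE 0.22, 95% interval -0.73 to 0.30, adjusted p = 0.620) and -0.00095 without CRISPRi mouse 2. Most of the signal was assigned to Ptpn18-206, a short form of 414 nt in 3 exons, at 2.01, 2.21 and 2.23 TPM in the controls and 2.04, 0.775 and 2.38 TPM in the CRISPRi mice. The form with all 15 exons, Ptpn18-201, which encodes the phosphatase, was at 0.399, 0.711 and 0.913 TPM in the controls and 0.524, 0.551 and 0.718 TPM in the CRISPRi mice. The low value of CRISPRi mouse 2 thus lay in the short form. Ptpn18 transcripts shared at least 90% identity over 200 nt or more with those of Ccdc138, Gm38157 and Slx1b, over up to 217 nt. Reads may thus be divided between these genes, so the level of Ptpn18 is uncertain. How reads were divided among the forms of Ptpn18 was not tested.

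Imp4 was the most abundant of the 4 genes and the most variable among controls. It was at 27.2, 14.2 and 9.36 TPM in non-targeting mice 1, 2 and 3 and at 31.0, 19.7 and 20.1 TPM in CRISPRi mice 1, 2 and 3. Non-targeting mouse 1 lies among the CRISPRi mice, and the other controls lie below all of them. limma gave a log2 fold change of 0.55 (SE 0.35, 95% interval -0.26 to 1.36, adjusted p = 0.461). Without non-targeting mouse 1 it was 0.94 and passed (adjusted p = 0.0480), as did 23.1% of all genes in that direction. When the remaining libraries were scaled by the median of ratios it was 0.61 and did not pass (adjusted p = 0.169).

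The spread of Imp4 came largely from transcripts other than the full coding form. Imp4-201, with 9 exons and 873 coding bases, was at 7.57, 4.83 and 5.32 TPM in non-targeting mice 1, 2 and 3 and at 7.26, 7.54 and 7.27 TPM in CRISPRi mice 1, 2 and 3. The sum of all other Imp4 transcripts was 19.6, 9.37 and 4.03 TPM in the controls and 23.7, 12.2 and 12.9 TPM in the CRISPRi mice. Non-targeting mouse 1 was thus high mainly in these. They were Imp4-204, annotated as a target of nonsense-mediated decay (12.6, 6.51 and 3.45 TPM in controls, 14.4, 8.42 and 7.0 TPM after CRISPRi), and Imp4-203, a processed transcript (6.66, 2.86 and 0.584 TPM, then 8.36, 3.31 and 5.10 TPM). Imp4-206, also a decay target, was at 0.32, 0 and 0 TPM in the controls and 0.949, 0.445 and 0.772 TPM in the CRISPRi mice, without overlap. It was below 1 TPM in every mouse and was not tested. The share of all transcripts without overlap was not counted, so this separation has nothing to be read against. At the level of single transcripts, 2 forms of Fam168b, 1 of Ptpn18 and 3 of Imp4 had a mean of at least 1 TPM. None of these passed limma over 19849 transcripts, where 0 passed in all (smallest adjusted p = 0.103) and 9.76% had an unadjusted p below 0.05, and none of them was below 0.05 unadjusted. Imp4-201 had a log2 fold change of 0.30 (SE 0.20, adjusted p = 0.537).

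Most symbols of the wider neighbourhood of Plekhb2 that were in the deposited data were listed at 0, and most of those are pseudogenes. Within 1 Mb to either side, GENCODE vM21 (GRCm38, used for order and strand only) names 47 further symbols, of which 26 were in the table. Of these, 11 are protein-coding and the others are pseudogenes. Of the 26, 17 were listed at 0 in every library, 4 were above 0 but below a mean of 1 TPM (Bend6, Gm5266, Gm3052 and Arhgef4), and 5 were tested. Among all 35970 symbols, 21941 were above 0 in any library. In chromosomal order the tested genes were Dst, Ccdc115, Imp4, Ptpn18 and Fam168b, all on the upstream side of Plekhb2. On the downstream side, the 4 symbols in the table, all pseudogenes, were listed at 0. Arhgef4, the next gene of the table beyond Fam168b, stayed at or near 0, and Fam168b was the nearest gene on either side that was tested.

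Across the neighbourhood no gene passed limma (0 of 5, against 0.0189% of all genes) and 1 of 5 had an unadjusted p below 0.05, against 13.3% of all genes. No tested neighbour separated the groups, against 17.1% of all genes, and the median log2 fold change was 0.36, against 0.18 over all tested genes. The gene below 0.05 was Dst, which encodes dystonin, a protein that links cytoskeletal filaments. It was at 12.5, 6.66 and 5.39 TPM in non-targeting mice 1, 2 and 3 and at 16.4, 12.1 and 16.7 TPM in CRISPRi mice 1, 2 and 3, with a log2 fold change of 0.87 (SE 0.29, adjusted p = 0.341). Only the high control, mouse 1, overlaps the CRISPRi mice, and without it Dst passed (1.19, adjusted p = 0.0179), though not when the libraries were also scaled by median of ratios (0.87, adjusted p = 0.0545). Ccdc115, an assembly factor of the proton pump V-ATPase, lies head to head with Imp4. It was at 9.22, 6.49 and 6.14 TPM in the controls and at 8.29, 11.7 and 8.79 TPM in the CRISPRi mice, and the groups overlap (log2 fold change 0.36, SE 0.21, adjusted p = 0.443).

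**Figure D3:**
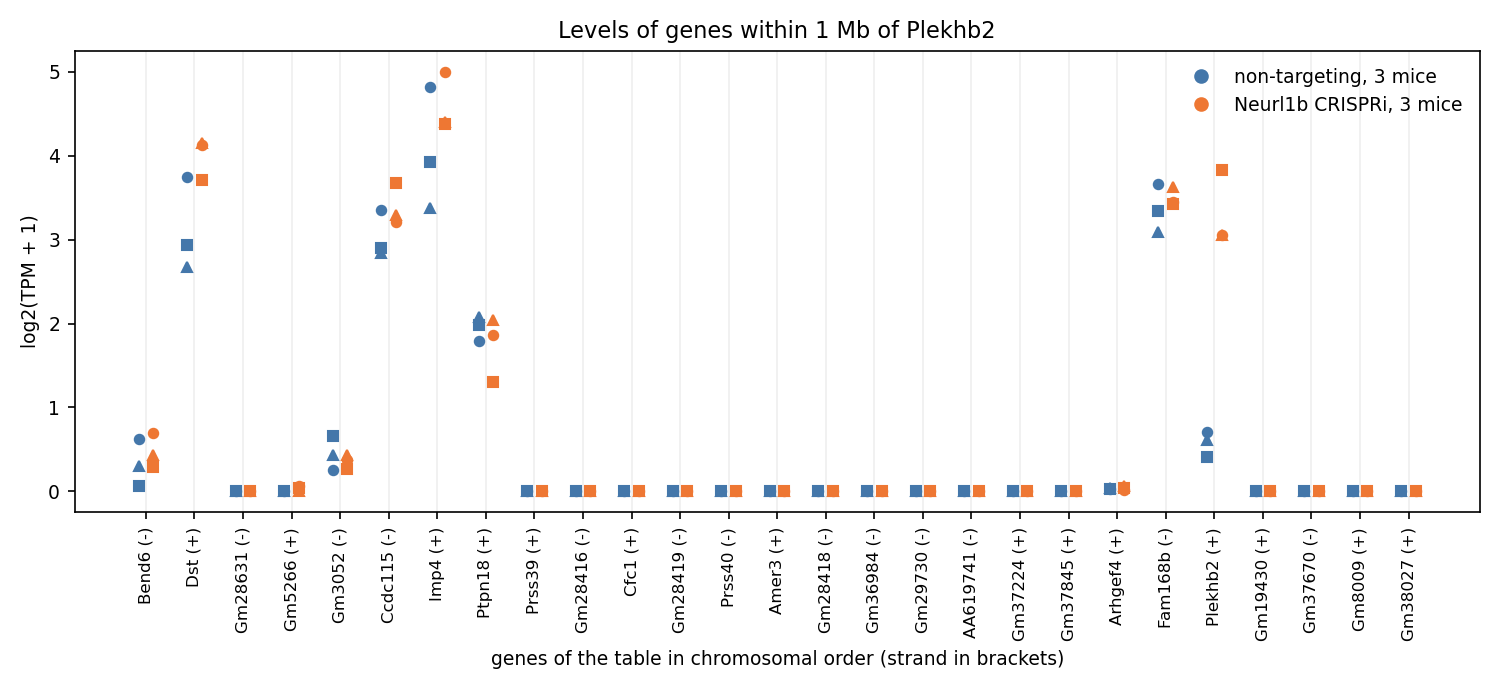
log2(TPM + 1) of Plekhb2 and the 26 symbols of the table within 1 Mb of it, in chromosomal order with equal spacing and strand in brackets, for 3 non-targeting mice (blue) and 3 Neurl1b CRISPRi mice (orange), with circles, squares and triangles for mice 1, 2 and 3. Plekhb2 lies below 1 on this axis in the controls and above 3 after CRISPRi, and 17 symbols lie at 0 in every library.

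Genes related to Plekhb2 and its neighbours were then described in 8 lists. Most were chosen by function, but the list of PLEKH genes (named for a pleckstrin homology domain) was drawn by name. The Fam168 list holds only the paralog Fam168a. Together the lists held 162 distinct genes, of which 135 had a mean of at least 1 TPM and were tested. None passed limma's adjusted threshold over all genes. An unadjusted p below 0.05 was found for 16, all of them higher after CRISPRi, against 10.1% of all genes higher and 3.19% lower. Over all 10598 tested genes, 74.0% had a log2 fold change above 0, with a median of 0.18. Median-of-ratios scaling moved that median to -0.0013, so a list's median is read against the median of all genes. Without non-targeting mouse 1 the median of all genes was 0.29, and each list's calls without it stand against 23.1% of all genes called higher, or 1.74% once median-of-ratios scaling was added.

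A list of 21 genes covered phosphatidylserine synthesis, flipping and transfer, which set the lipid that evectin-2 binds, and 15 were tested. Plekhb1, the paralog of Plekhb2, was placed among these 15 and is counted again among the PLEKH genes. The counts of this list are therefore not of that function alone. The median of the 15 was 0.17, close to that of all genes, and 4 of 15 (26.7%) had CRISPRi mice above all controls, against 12.5% of all genes. Of these 4, Osbpl10 and Ano6, the latter named after its values were seen, had control means of 0.654 and 0.854 TPM. They reached the mean of 1 TPM only through the CRISPRi mice, with means of 1.61 and 1.36 TPM. The 26.7% therefore rests in part on genes that entered the test by their group difference. Ptdss2, a phosphatidylserine synthase, was at 4.98, 6.83 and 5.49 TPM in the controls and at 8.91, 11.6 and 8.99 TPM after CRISPRi, a log2 fold change of 0.68 (SE 0.19, adjusted p = 0.323). Osbpl10, a lipid transfer protein, had 0.67 (SE 0.20), the P4-ATPase gene Atp9a 0.47 (SE 0.17), and Pisd, which turns phosphatidylserine into phosphatidylethanolamine in mitochondria, 0.54 (SE 0.23). Ptdss2, Osbpl10 and Atp9a did not overlap between groups, and Pisd did. When non-targeting mouse 1 was left out, these 4 of 16 tested (25%) were called higher, and the flippase gene Atp11a, named after its values were seen, was called lower. With scaling added, Atp11a alone was called. It was at 0.643, 2.64 and 1.39 TPM in non-targeting mice 1, 2 and 3 and at 0.398, 0.358 and 0.318 TPM in the CRISPRi mice. With all 6 libraries its mean was below 1 TPM and it was not tested. Without non-targeting mouse 1 it reached that mean only through the high controls, so its call is not independent of the group difference.

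Recycling endosome genes, the compartment where evectin-2 resides, had the highest median of the lists, 0.40 over 27 tested of 29, with 26 above 0. After median-of-ratios scaling the median was 0.25 with 23 above 0. None of the 27 passed. An unadjusted p below 0.05 was found for 5 (18.5%, against 10.1% of all genes higher), and in 4 (14.8%, against 12.5%) the CRISPRi mice lay above all controls. Without non-targeting mouse 1, 16 of the 27 were called higher, or 59.3%, against 23.1% of all genes. Once the libraries were also scaled by the median of ratios, 2 were (7.41%, against 1.74%), Ehd1 and Ehd4, the latter named after its values were seen. Myo5b, the motor that moves RAB11 vesicles, was at 16.4, 5.32 and 9.82 TPM in the controls and at 33.4, 30.6 and 12.4 TPM in the CRISPRi mice, with CRISPRi mouse 3 inside the control range (log2 fold change 1.20, SE 0.44, adjusted p = 0.344). Ehd1, which shapes recycling tubules, was at 32.2, 15.5 and 17.8 TPM in the controls and at 34.5, 33.3 and 33.7 TPM in the CRISPRi mice, narrowly without overlap (0.68, SE 0.26). The RAB11 effectors Rab11fip1 and Rab11fip4 had 0.67 and 0.53, with overlap. Ehd1, Rab11fip1 and Rab11fip4 were among those called without non-targeting mouse 1, and Myo5b was not (adjusted p = 0.0559).

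Endosome to Golgi retrieval, the route in which evectin-2 takes part, had 24 of 24 genes tested, 23 above 0 and a median of 0.32, which was 0.11 after median-of-ratios scaling. In 8 of 24 (33.3%) the CRISPRi mice lay above all controls, against 12.5% of all genes. These included the 4 with the smallest p: the SNARE genes Stx16 (log2 fold change 0.66, SE 0.23) and Vti1a (0.45, SE 0.18), the retromer subunit Vps29 (0.53, SE 0.20) and the cargo receptor Igf2r (0.42, SE 0.17). The smallest adjusted p was 0.344. Without non-targeting mouse 1, 9 of 24 (37.5%) were called higher, these 4 among them, and 0 of 24 once scaling was added.

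For NEDD4 family ligases and adaptors, 9 of 11 were tested with a median of 0.23, and 1 (11.1%, against 12.5% of all genes), Wwp2, lay higher without overlap (0.46, SE 0.20). The ligase Smurf1 had 0.37, the adaptor Ndfip2 0.44 and Nedd4 itself 0.51, and none of them passed. With non-targeting mouse 1 left out, 3 of 9 (33.3%) were called higher, Wwp2, Ndfip2 and Nedd4, and 0 of 9 once scaling was added.

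All 37 small subunit processome genes, the partners of Imp4, were tested, and with all 6 libraries their median of 0.19, or 0.013 after median-of-ratios scaling, lay close to that of all genes. Without non-targeting mouse 1 it was 0.42, against 0.29 over all genes, and 14 of 37 (37.8%) were called higher. With scaling added none was higher, and Emg1 was lower. In 1 of the 37 (2.70%, against 12.5% of all genes), Nop14, the CRISPRi mice lay above all controls (log2 fold change 0.56, SE 0.23, adjusted p = 0.363), and in 2 (5.41%, against 4.57%), Emg1 and Rrp9, they lay below. Emg1 and Rrp9 are named after their values were seen. Nol6, Rrp7a and Tbl3 had 0.52, 0.51 and 0.47, and with Nop14 they were among the 14 called without that mouse.

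Among the 11 PEST phosphatases, partners and substrates linked to Ptpn18, 7 were tested, with a median of 0.12, or -0.09 after median-of-ratios scaling. Egfr was at 6.49, 17.2 and 7.13 TPM in the controls and at 5.90, 6.31 and 3.63 TPM in the CRISPRi mice (-0.75, SE 0.35). It was the 1 of 7 (14.3%, against 4.57% of all genes) that lay lower without overlap, narrowly, and none lay higher. The kinase gene Src had 0.76 (SE 0.32), Erbb3 -0.13 and the adaptor Grb2 0.13. Src alone of 8 tested was called higher without non-targeting mouse 1, and none once scaling was added. Fam168a, the paralog of Fam168b, was at 3.05, 1.73 and 1.43 TPM in the controls and 2.17, 2.10 and 3.03 TPM in the CRISPRi mice.

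Other genes named for a pleckstrin homology domain were described as a list too. Of 29 PLEKH genes 16 were tested, with a median of 0.20, and 3 (18.8%, against 12.5% of all genes) lay higher without overlap. These were Plekha1 (3.12 to 6.98 TPM in controls, 7.49 to 7.83 after CRISPRi, log2 fold change 0.70, SE 0.26, adjusted p = 0.344), Plekha8 (0.44) and Plekhm2 (0.31). Plekha3 had 0.30, with overlap. Calls without non-targeting mouse 1 were 3 of 16 higher, Plekha1, Plekha3 and Plekha5, the last named after its values were seen, and Plekha1 alone once scaling was added. The highest value of these 16 was 0.70. Plekhb2, at 2.74, was picked for its difference, so the gap between them follows from that choice and is not a test.

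**Figure D4:**
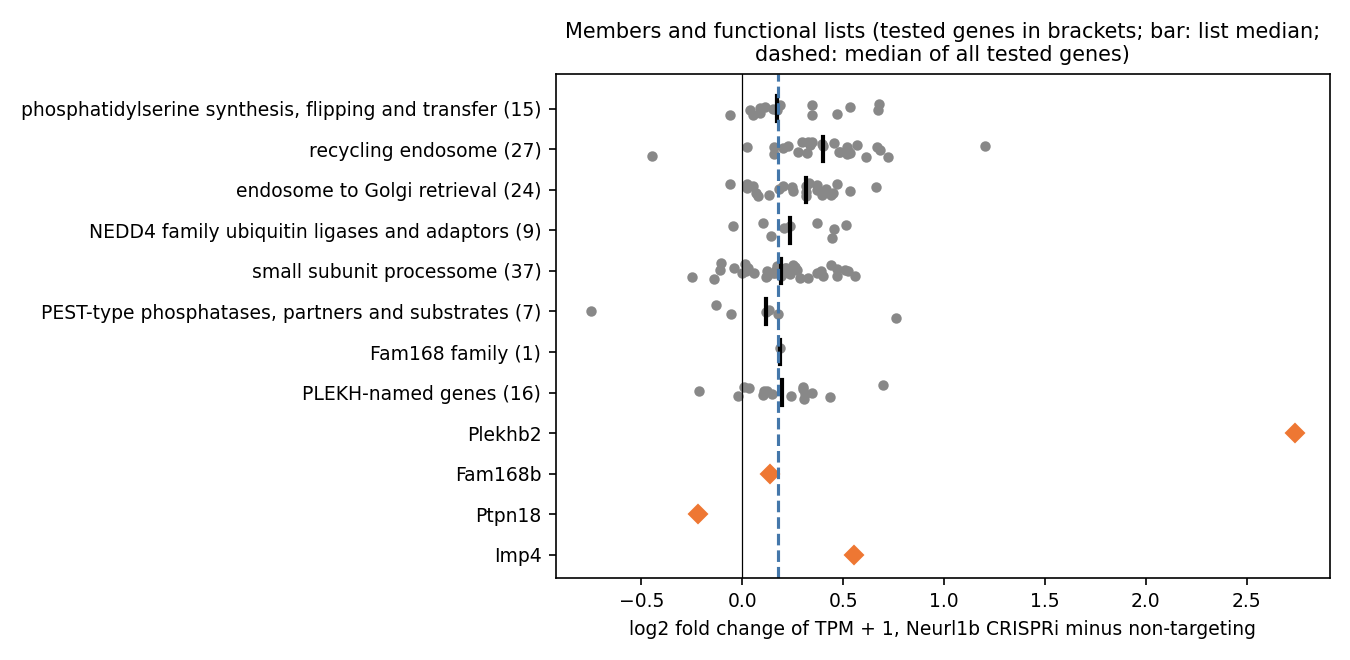
limma log2 fold change of TPM + 1 (Neurl1b CRISPRi minus non-targeting) for each tested gene of the 8 lists (grey points, black bar at the list median), and for Plekhb2, Fam168b, Ptpn18 and Imp4 (orange diamonds), with the dashed line at the median of all tested genes, 0.18. Plekhb2, picked for its difference, is at 2.74, and the listed gene furthest to the right is Myo5b at 1.20.

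The genes with the pattern most like that of Plekhb2 were found by the root mean squared difference between centred log2(TPM + 1) values over the 6 libraries, among 10038 genes ranked without predicted genes. The nearest was Bglap3 at a distance of 0.646, followed by Hid1 (0.718), Serpinb9f (0.725), Dynlt2a1 (0.733), Gpx3 (0.756), Iqgap1 (0.773), Lxn (0.777) and Slc1a4 (0.790). Bglap3, of the osteocalcin cluster, was at 4.47, 1.46 and 3.99 TPM in the controls and 22.5, 17.0 and 8.08 TPM in the CRISPRi mice. Gpx3, the secreted glutathione peroxidase, was at 131, 43.3 and 116 TPM in the controls and 360, 323 and 180 TPM in the CRISPRi mice. In these 2 genes CRISPRi mouse 3 was the lowest of its group, whereas for Plekhb2 mice 1 and 3 were level and mouse 2 was the highest. Bglap3, Serpinb9f and Dynlt2a1 have near-identical relatives, between which reads may be divided. By this measure Imp4 ranked 2269, Plekhb1 2441, Fam168b 5836 and Ptpn18 9275. The values were centred but not scaled, so the distance depends on the size of the group difference, for which Plekhb2 was picked. The far ranks of the neighbours therefore restate their smaller differences.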

How the data were processed

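Ribosome-bound, poly(A)-selected RNA was measured in 6 livers, 3 per group, grouped by the guide named in the sample titles. The authors deposited TPM for 117486 transcripts. The submitters' processing notes name kallisto, which estimates transcript levels, and build mm39. The version of kallisto and the transcript set were not given in the sources used here. The columns sum to 1000000, so TPM keep no depth, and no counting interval can be given.

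Transcripts were summed by symbol, and the 168 without a symbol were left out. For 10598 genes whose mean TPM was 1 or more, log2(TPM + 1) was compared in limma 3.58.1 (R 4.3.3; trended prior, two-sided, no covariate, Benjamini-Hochberg adjustment over all tested genes, threshold 0.05). Whether mice of a group are littermates or shared a preparation day is not given. limma was tested on simulated data.

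The members, lists, named-gene rule and alternatives were chosen with earlier results of these data known, and are not independent evidence. Named are the 4 members with their transcripts, Neurl1b and Fah, every tested neighbour, the 4 genes of smallest unadjusted p in each list, and the 8 genes closest in pattern. Plekhb1, outside this rule, was added as the closest paralog of Plekhb2. Similarity was searched with blastn 2.17.0 against GENCODE vM21 transcripts, which held 99.15% of the deposited transcript identifiers. That annotation is GRCm38 and served for order, strand, transcript names and sequences only.

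Other settings tried were pseudocounts of 0.1 and 5, dropping the filter or raising it to 5 TPM, scaling by the median of ratios, quantile normalization, a constant prior, the mouse number as a replicate block and each mouse left out. The combination of leaving out non-targeting mouse 1 with median-of-ratios scaling, and the transcript-level test, were added after seeing the data.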

Additional observations from a re-analysis of the deposited data

How the results depend on the processing

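The Plekhb2 log2 difference of 2.74 kept its sign in every alternative. It was 3.95 with a pseudocount of 0.1 and 1.35 with 5, as the offset weighs most on the low control values, and 2.48 to 2.87 with 1 mouse left out in turn. It had no value under a mean TPM of at least 5, nor had Ptpn18, since both fall below that filter. The share difference of Plekhb2-201 ranged from -11.6 to -8.45 percentage points with 1 mouse left out. Fam168b reversed to -0.053 with median-of-ratios scaling, -0.046 with quantile normalization and -0.028 without non-targeting mouse 1 plus median-of-ratios scaling, and was 0.0021 to 0.29 with 1 mouse left out. Ptpn18 stayed below 0 and past no threshold in all 14 alternatives, at -0.37 to -0.00095 with 1 mouse left out. Imp4 passed only without non-targeting mouse 1, and ranged from 0.22 to 0.94 with 1 mouse left out.

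The number of neighbourhood genes called was 0, and 0 to 2 with 1 mouse left out. For the 8 lists it was 0, and 0 to 51 with 1 mouse left out, the highest without non-targeting mouse 1 (50 higher and 1 lower), and 5 once those libraries were scaled by the median of ratios. Over all genes it was 2, and became 0 with a pseudocount of 5, 0 with no filter, 0 with quantile normalization and 1 with a mean TPM of at least 5. It was 0 to 2673 with 1 mouse left out, and 473 without non-targeting mouse 1 plus median-of-ratios scaling. The cause was not tested. With the mouse number as a replicate block, 2 genes were called over all genes and no member or list changed its call (Imp4 0.55, adjusted p = 0.336). Deviations of same-numbered mice correlated at 0.061, -0.096 and -0.277 across genes, and those of differently numbered mice at -0.17 to 0.222. With 3 mice per group, each centred on its group mean, these values cannot decide whether mice were paired. No pairing is stated, so the numbers were used as names only.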
